A study of Mus musculus with 18 samples.

Results

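The 8 genes described here encode chromatin and DNA-modifying proteins: the histone methyltransferases Kmt2a, Kmt2b, Kmt2c and Kmt2d, the 5-methylcytosine dioxygenases Tet2 and Tet3, the acetyltransferase scaffold Brpf1 and the corepressor Ncor1. They were chosen by name, with their calls known, and every call annotated to them was taken whatever its consequence. Of 2653 calls analysed in the series, 11 at 11 distinct sites lay in these genes. The exomes of 17 leukemias had been sequenced, each sampled in a different mouse, with 11 taken from the thymus and 6 from the bone marrow. All 17 mice were double transgenic for NP23, a fusion of NUP98 to PHF23, and NHD13, a fusion of NUP98 to HOXD13. Their background was C57Bl6-NIH, and their disease is labelled thymic AML (acute myeloid leukemia), also where the sample is bone marrow. The normal was the tail of 1 wild-type C57Bl6-NIH mouse without either transgene, so no leukemia had a normal from its own mouse. Ages were not given in the sources used here. In the published lines of these names the transgenes are driven by Vav1 regulatory sequences, which are active throughout the blood system, so the fusions are present before and beside the leukemic cells. A share of reads in such a bulk sample reflects both how many cells carry a change and how many copies of the site each cell has.

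KMT2 proteins are large enzymes that place methyl groups on lysine 4 of histone H3 through a SET domain near their C terminus. KMT2A and KMT2B act with menin mainly at promoters and KMT2C and KMT2D mainly at enhancers, and rearranged KMT2A drives human leukemias. The PHD finger that NP23 takes from PHF23 binds the trimethylated form of the same lysine. TET enzymes oxidise 5-methylcytosine in DNA as a step toward its removal, and loss of TET2 is common in human myeloid disease. BRPF1 holds together the histone acetyltransferase complexes of KAT6A and KAT6B, and NCOR1 brings the deacetylase HDAC3 to repressed genes.

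Of the 11 calls, 10 altered the protein: 6 were missense, 3 were annotated as frameshifts and 1 as a gained stop. The remaining call was synonymous. Of all 2653 calls, 39.6% altered the protein. All 11 were private, that is listed in no other leukemia, as were 75% of all calls. None carried the mark of a known database variant, and 74.2% of all calls were without it. The genes were picked with these calls known, so nothing is read from the difference. The changes were carried by 6 of the 17 leukemias. M18 had 3 protein-altering calls (Tet2 and both Tet3 calls), M19 had 3 (among them Kmt2d and Ncor1), and M21, M22, M23 and M31 had 1 each. Kmt2b was the only one of the 8 genes with protein-altering calls in 2 leukemias, and the other 7 genes had them in 1. Several leukemias stood apart from the rest in the whole table. M18, M19 and M22, with median depths of 96.5 to 130 reads at widely shared sites, had between 197 and 223 private calls below an allele fraction of 0.10, while M31 had 885 calls in all and 851 private calls, of which 245 had no database mark. Without M18, M19 and M22, 3 protein-altering calls were left, in Kmt2a, Kmt2b and Kmt2c.

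Low-fraction calls made up most of the group. An allele fraction here is the share of the alternative allele as estimated by the authors' caller, and 0.10 separated higher from low-fraction calls. Only 3 of the 10 protein-altering calls reached it, among them Kmt2a in M31 and 1 of the Kmt2b calls, in M21. Among all protein-altering calls of the table the share at 0.10 or above was 37.8%, among all calls whatever their consequence it was 53.5%, and among the 690 private protein-altering calls without a database mark it was 15.5%. The 8 calls below 0.10 had caller fractions from 0.016 to 0.043 and rested on 3 to 6 alternative reads each, at depths of 99 to 263.

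**Figure D1:**
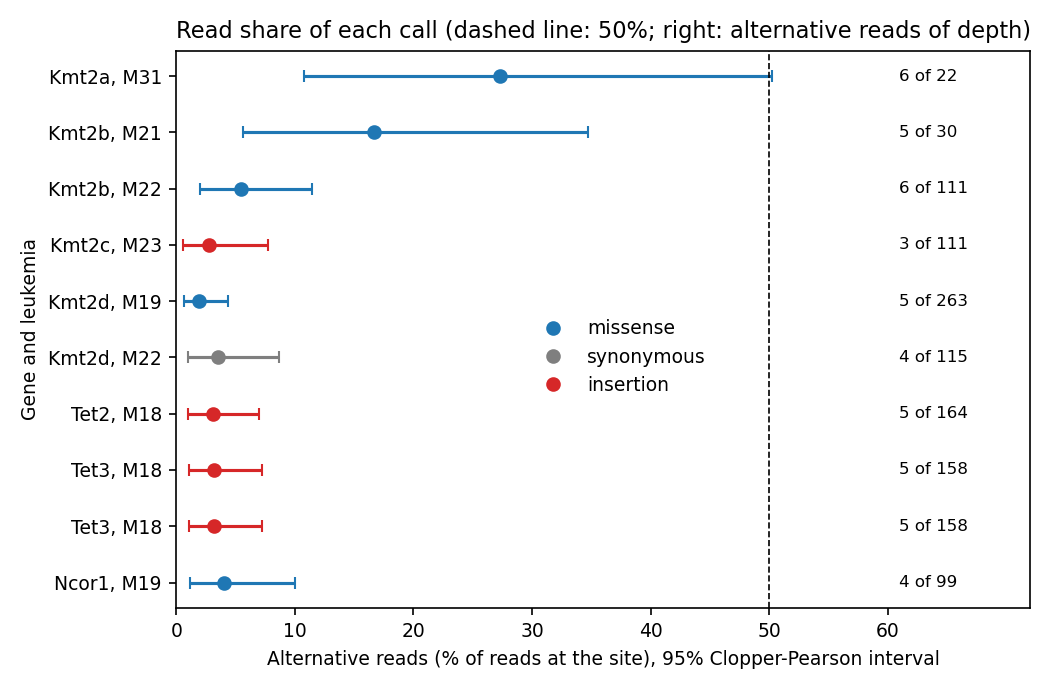
Alternative reads as a percentage of the reads at each site (horizontal axis) for 10 calls in 7 of the genes (rows), with 95% Clopper-Pearson intervals and with alternative reads and depth at the right. Kmt2a lies highest at 27.3% with an interval that reaches the dashed line at 50%, and the other 9 intervals end below it.

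A heterozygous change present in every cell of a diploid sample would give an even split of reads, and each call of the table was tested against that split. The alternative allele took less than 50% of the reads in 9 of the 11 calls, at an adjusted p of at most 0.000504 (two-sided exact binomial test with Benjamini-Hochberg adjustment over all calls of the table). Of all 2653 calls 75.5% passed in this direction, and among private unmarked protein-altering calls 94.6% did, so the count for the 8 genes is near that background. Kmt2a was among the 2 calls that did not pass. Its adjusted p was 0.0656 (exact binomial test), at a site with only 22 reads.

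The KMT2 methyltransferases held 6 of the 11 calls, 5 of them protein-altering, in 5 leukemias. Kmt2a, the mouse counterpart of the gene rearranged in human acute leukemia, had T1311I in M31 (c.3932C>T, chromosome 9, position 44842610 of mm10, exon 7 of 36). It was carried by 6 of 22 reads (27.3%, interval 10.7% to 50.2%), with a caller fraction of 0.235. Residue 1311 of 3963 lies between the CXXC domain, which binds unmethylated CpG DNA, and the first PHD finger. The depth at this site was below the 58 reads that were the median of M31 at widely shared sites. Among the 245 private unmarked calls of M31 the Kmt2a fraction ranked 138th, close to their median of 0.265. Its fraction was thus ordinary for M31, a leukemia with many private calls of intermediate fraction.

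Kmt2b, which encodes a close paralog of KMT2A, was altered at arginine codons in both leukemias. R1308C in M21 (c.3922C>T, exon 14 of 37, chromosome 7 at 30581114) was seen in 5 of 30 reads (16.7%, interval 5.64% to 34.7%). This residue lies in the part of the protein that holds the cluster of PHD fingers. R2686H in M22 (c.8057G>A, exon 37 of 37, chromosome 7 at 30569273) was found in 6 of 111 reads (5.41%, interval 2.01% to 11.4%). It lies 36 residues from the end of a protein of 2722 residues, in the C-terminal part that holds the SET domain. The caller gave fractions of 0.15 and 0.034 to these calls. Their intervals overlap, and the difference in read share between M21 and M22 was not tested. M21 was the shallowest leukemia, with a median of 38 reads at widely shared sites, and 3 reads there make up 7.89%. The read share of 5.41% seen in M22 is below that value, but depth differs between sites. M21 had a private unmarked protein-altering call with a caller fraction of 0.027, so lower shares were called there at some sites.

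Kmt2c, which encodes a subunit of the enhancer-acting complexes, had the only call annotated as a gained stop. An insertion of 3 bases in M23 (chromosome 5, position 25284465, exon 52 of 59) lay inside the codon of lysine 4492, and M23 was the only bone marrow leukemia among the 6. The sequence is shown because the stop arises from the inserted bases themselves and needs no shift of the frame. Bases are on the coding strand, inserted bases are in capitals, and n is a base that the annotation does not fix.
Kmt2c lysine codon: aan
Kmt2c codon with the insertion: aCCTan
The new bases spell threonine and then a stop whichever lysine codon is present, which is the annotated p.Lys4492delinsThrTer. From lysine 4492 on, 413 of 4904 residues would be lost, and these hold the SET domain. The insertion was carried by 3 of 111 reads (2.7%, interval 0.561% to 7.7%), the fewest alternative reads of the 11 calls, all 3 in the same read-pair orientation. Kmt2c was also the only one of the 8 genes flagged for nonsense-mediated decay in the deposited annotation, while Kmt2c, Tet2 and Tet3 were flagged for loss of function.

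Kmt2d, the paralog of Kmt2c, had 1 missense and 1 synonymous call. A5487T in M19 (c.16459G>A, chromosome 15, position 98835214, exon 52 of 55) lay 101 residues from the end of a protein of 5588 residues, within the SET domain. This site was the deepest of the 11, and 5 of 263 reads (1.9%, interval 0.62% to 4.38%) carried the change. The synonymous R1752R in M22 (c.5256G>A, exon 24 of 55, chromosome 15 at 98855617) was present in 4 of 115 reads (3.48%, interval 0.956% to 8.67%). The silent call thus had a read share within the interval of several protein-altering calls, among them R2686H of Kmt2b in the same leukemia. Of the 5 protein-altering KMT2 calls, 3 lay close to the C terminus, at 91.6% (Kmt2c), 98.2% (Kmt2d) and 98.7% (Kmt2b) of the length, and all 3 had caller fractions of 0.036 or less, a grouping made after the positions were seen.

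**Figure D2:**
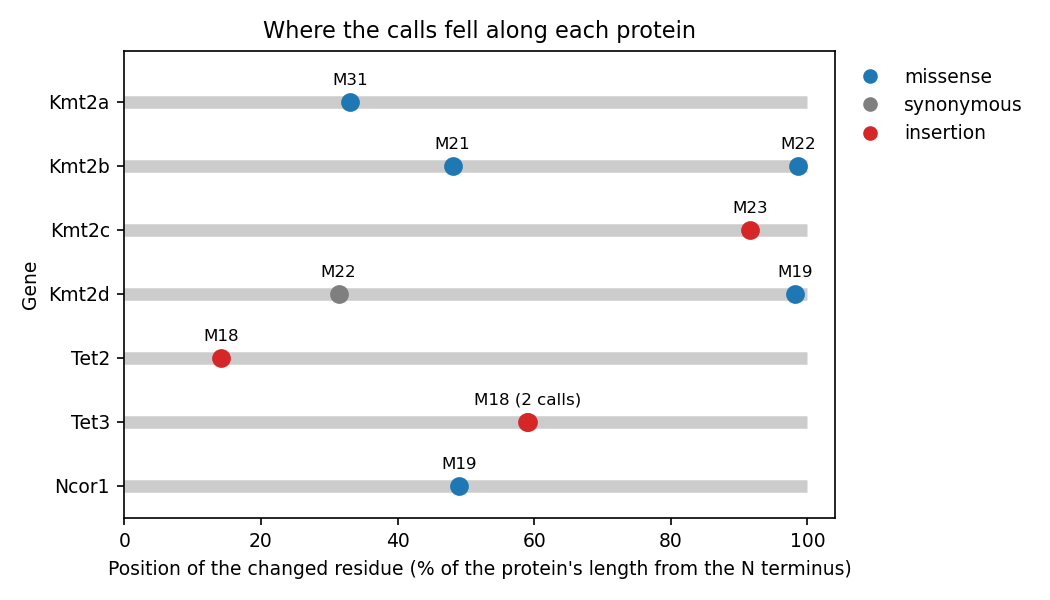
Position of each changed residue as a percentage of the protein's length from the N terminus (horizontal axis) for 7 of the genes (rows), coloured by the kind of change and labelled with the leukemia. Calls in Kmt2b, Kmt2c and Kmt2d sit at 91.6% to 98.7% of the length, and both Tet3 calls coincide at 59%.

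Tet2 and Tet3 were altered only by insertions, only in M18, and only at low fraction. Such calls were common in M18. Its 230 private unmarked calls included 65 insertions or deletions and 34 frameshifts. Of its 139 private unmarked protein-altering calls, 136 were below 0.10. Tet2 had an insertion of 1 base annotated as L270fs (chromosome 3, position 133487864, exon 3 of 11), far upstream of the C-terminal catalytic domain. It was carried by 5 of 164 reads (3.05%, interval 0.997% to 6.97%), but the caller's fraction was 0.016. The orientation counts of this call held only 2 of the 5 alternative reads, and such a shortfall occurred in 25 calls of the whole table. The caller also counted 2 events on the Tet2 haplotype, 1 base apart, and the other event is not analysed here. A count of 2 events was given to 66 of the 280 calls of M18 and to 252 of all 2653. Whether the reading frame of these reads is shifted in the end cannot be told from the single insertion.

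For Tet3 both events were listed. Insertions of 2 and 7 bases stood at chromosome 6, positions 83370654 and 83370655, in exon 10 of 11, in the part of the protein that holds the catalytic domain. They were annotated as separate frameshifts, V985fs and H984fs. Both were carried by 5 of 158 reads (3.16%, interval 1.04% to 7.23%), and 8 of 8 deposited values compared were equal, among them the caller fraction (0.034), the tumor score and the orientation counts. The caller had placed both on 1 haplotype. Their sequences are shown because reading them apart or together gives different proteins. Bases are on the coding strand from the first base of the histidine 984 codon, with inserted bases in capitals.
Tet3 reference codon: cac
Tet3 with the insertion of 7 bases: cCAAACTCac
Tet3 with the insertion of 2 bases: caTCc
Tet3 with both: cCAAACTCaTCc
Together the insertions add 9 bases, a multiple of 3, so the frame downstream is kept. In place of histidine 984 the joined sequence codes for 4 residues with 0 stop codons, H984delinsPNSS. Joined as 1 event, the Tet3 calls are an in-frame insertion of 3 additional residues, and the number of protein-altering events in the 8 genes falls from 10 to 9. In the whole table, with the Tet3 pair counted, 10 haplotypes in 4 leukemias carried a pair of calls both annotated as frameshifts. In 9 of them, the Tet3 pair included, the lengths summed to a multiple of 3.

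Ncor1, the corepressor gene, was altered in M19, the leukemia with Kmt2d A5487T. P1203S (c.3607C>T, exon 26 of 45, chromosome 11 at 62351477) was seen in 4 of 99 reads (4.04%, interval 1.11% to 10%). Within M19 the intervals of Ncor1 and Kmt2d overlapped, and the difference in read share between the 2 changes was not tested. Both were low-fraction calls, as were most in that leukemia: M19 had 132 private unmarked protein-altering calls, of which 6 reached 0.10.

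The caller's tumor score is a log odds that the alternative allele is real, and the lowest score in the table was 6.3. Kmt2a scored 9.78 on 6 alternative reads and the Kmt2b call of M21 scored 7.86 on 5. For M31 the Kmt2a score was low, below the median of 25.42 over its private unmarked calls. It ranked 754th among the 851 private calls of M31. The 4 low-fraction insertions scored 7.88 to 12.52, all above the 4 low-fraction single-base changes, which scored 6.33 to 7.78. Both Tet3 calls scored 10.41 and the Kmt2c insertion 7.88. Of the single-base changes, Kmt2d A5487T scored 7.78, above the median of 7.4 over private unmarked protein-altering calls. Kmt2b R2686H scored 6.82 and Ncor1 6.81, below that median and near the lowest score of the table. The highest of the insertions was Tet2, although its caller fraction was the lowest of the 11. Insertions scored higher for the same read support elsewhere too: with 5 alternative reads, private unmarked calls outside the 8 genes had a median score of 10.47 for 21 insertions and 6.97 for 182 single-base changes. The Tet2 score of 12.52 lay between the quartiles of those 21 insertions, 9.74 and 13.23. It was high only beside calls of like caller fraction, whatever their kind. The other 27 private unmarked protein-altering calls with a caller fraction up to 0.016 scored at most 8.79. The synonymous Kmt2d call had the lowest score of the 11, 6.33.

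**Figure D3:**
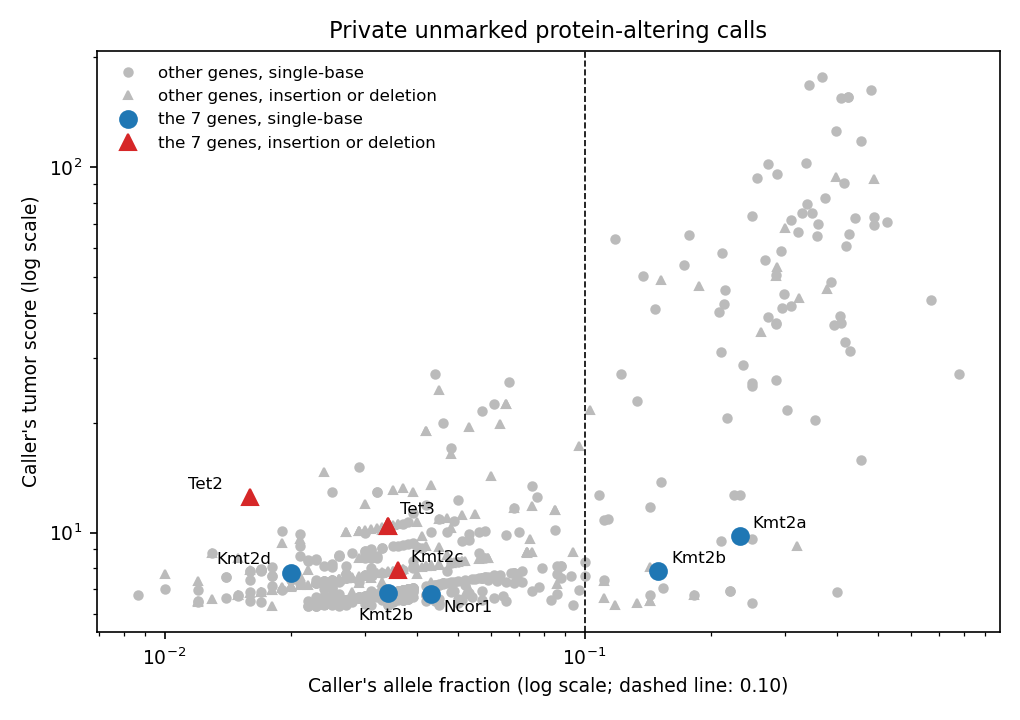
The caller's tumor score (vertical, log scale) against its allele fraction (horizontal, log scale) for 689 private unmarked protein-altering calls, with 9 calls of 7 of the genes in colour, circles for single-base changes and triangles for insertions or deletions. Kmt2a (0.235, score 9.78) lies right of the dashed line at 0.10, and Tet2 (0.016, score 12.52) lies above the other calls of its fraction.

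All 7 single-base changes in the 8 genes were C to T or G to A, the same substitution read on either strand. This class made up 60.2% of the private unmarked single-base calls of the series and 64.6% of those in the 6 leukemias concerned. In both Kmt2b changes the codon itself places the altered base in a CpG, since arginine becomes cysteine or histidine by this substitution only from codons of the form CGN. A CpG was thus fixed by the codon in 2 of the 6 missense calls, against 19.9% of the 317 private unmarked missense calls of this class. For Kmt2d A5487T the neighbouring base lies in the preceding codon and is not given. For Kmt2a and Ncor1 the codon places no CpG at the altered base, since ATG is not an isoleucine codon and the changed base of proline is followed by C. Read-pair orientation was compared between reference and alternative reads: 0 of the 11 calls passed (adjusted p of 0.905 to 1, two-sided Fisher exact test with Benjamini-Hochberg adjustment over 2652 calls), 0 had a raw p under 0.05, and 0.0377% of calls passed in the whole table. In 10 of the 11 calls the test rests on at most 6 alternative reads, too few for it to decide. Even the Kmt2c insertion, with all 3 alternative reads in 1 orientation, had a raw p of 0.248 (Fisher exact test). Among the calls with few reads the strongest imbalance was that of the synonymous Kmt2d call, whose 4 alternative reads shared 1 orientation (raw p = 0.12, Fisher exact test). The 6 alternative reads of Kmt2a split 5 to 1, against 6 to 10 for its reference reads (raw p = 0.149, Fisher exact test).

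The wild-type tail showed 0 alternative reads at all 11 sites. Most calls of the table likewise had 0 there, since only 187 of 2653 had at least 1, so nothing is read from this count. Tail depth at the 11 sites ran from 13 reads (Kmt2a) to 153 reads (Kmt2c). It was 19 and 86 reads at the Kmt2b sites of M21 and M22, 89 and 30 at Kmt2d A5487T and R1752R, 57 at Tet2, 38 at Tet3 and 17 at Ncor1. A count of 0 still allows a share of up to 23.1% at Kmt2a and 1.96% at Kmt2c, taking 3 reads as the limit. For 6 of the 11 calls (Kmt2d A5487T and R1752R, Tet2, both Tet3 calls and Ncor1) this limit exceeded the share seen in the leukemia itself. At those sites a count of 0 in the tail thus leaves room for a share as large as that in the leukemia.

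The 6 leukemias with protein-altering calls in the 8 genes held 76.1% of all private unmarked protein-altering calls of the series. By tissue, protein-altering calls in the 8 genes were found in 5 of 11 thymus leukemias (45.5%, interval 16.7% to 76.6%) and in 1 of 6 bone marrow leukemias (16.7%, interval 0.421% to 64.1%). Thymus leukemias held 78.7% of all private unmarked protein-altering calls. The labels of 9 mice carry the letters NN, whose meaning they do not give, and those of the other 8 do not (called plain here). The 6 leukemias with a change in the 8 genes were all plain, 6 of 8, against 0 of 9 NN leukemias, for which the Clopper-Pearson interval ends at 33.6%. Plain leukemias held 86.4% of the private unmarked protein-altering calls of the series, 596 against 94 in NN leukemias. M18, M19 and M22 had 139, 132 and 119 of these. At an allele fraction of 0.10 or above 3 plain leukemias remained, and without M18, M19 and M22 likewise 3. Median depths ran from 38 to 130 reads in plain and from 48 to 121.5 reads in NN leukemias, so the ranges overlapped. Since the 8 genes were picked for having calls, no test was applied to these counts.

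**Figure D4:**
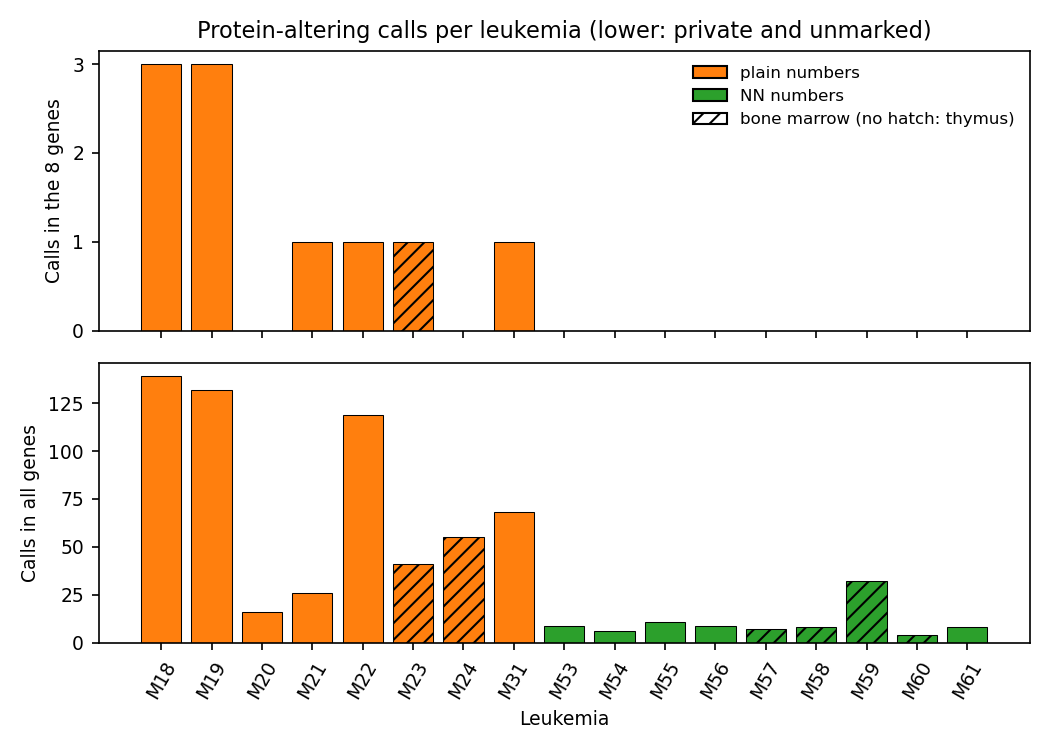
Protein-altering calls per leukemia in the 8 genes (upper bars) and private unmarked protein-altering calls in all genes (lower bars), orange for plain and green for NN mouse numbers, hatched for bone marrow. M18, M19 and M22 have 119 to 139 calls in all genes, NN leukemias 4 to 32, and all 10 calls in the 8 genes fall in plain leukemias.

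Genes that work with these 8 were listed by complex. Of 21900 protein-coding genes in the RefSeq gene table of GRCm38.p6, 3.27% had a protein-altering call, but the lists hold the 8 genes themselves, so their counts are a description only. Of 23 genes of the KMT2 and SET1 complexes and their relatives, 5 had a protein-altering call, namely the 4 Kmt2 genes and Kdm6b, which encodes an H3K27 demethylase. Kdm6b had an insertion of 11 bases in M22 (P954fs, chromosome 11, position 69404581, exon 11 of 23) in 7 of 82 reads (8.54%, interval 3.5% to 16.8%), with a caller fraction of 0.097. Among 12 DNA methylation genes, Tet2 and Tet3 were the 2 with a protein-altering call, and among 8 genes of the NCoR and SMRT complex Ncor1 was the only one. In the MYST acetyltransferase complexes 1 of 14 genes had a protein-altering call. Kat7, an acetyltransferase of that list, had a pair of adjacent intronic calls in M22, both in 3 of 68 reads. Of 6 methyltransferases of H3K36 and H3K79, Nsd1 had protein-altering calls in 5 leukemias, all of the NN series. These counts cover only the rows analysed here.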

How the data were processed

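Exome libraries used a SureSelectXT mouse exon capture, per the labels' protocols. BWA 0.7.17, GATK and bcl2fastq 2.17.1.14 are listed in the submitters' processing notes, beside the builds mm10 and GRCm38. The labels name MuTect2 without a version. The authors deposited raw counts of reads for each allele, for depth and for read-pair orientation. Their caller's own estimate of the alternative share, a fraction, was deposited beside them, and the tumor and normal score are log odds the authors deposited, whose log base is not given. Event counts per haplotype and the distance between events are deposited values of another kind. Every one of the 2653 rows was marked as passing filters and as inside the baits. The reads of the normal were taken as those of the tail, the only sample that is not a leukemia. The table's 25 other columns of per-sample values were not used. The counts cover the rows given for this work.

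Protein-altering calls were missense, stop gained or lost, start lost, frameshift, in-frame and essential splice site changes. Exon numbers stored as dates in 5 member rows were read back by a fixed rule. Depth per leukemia was the median at sites shared by at least 10 leukemias. Intervals are 95% Clopper-Pearson intervals, limits for a count of 0 use 3 reads unless an upper bound is named, and all cover counting error only. Each leukemia is 1 mouse without replicate, so a call has no replicate error. The exact binomial and Fisher exact tests (SciPy 1.17.1) were run on every call and adjusted over the table. On simulated reads at the real depths of 2653 calls, the even-split test recovered 99% of 200 calls set to a share of 0.05 with 6 false calls. The orientation test recovered 75.5% of 200 calls skewed to 0.95, with 4 false calls. Simulated calls mostly had more alternative reads than most of the 11 calls in the 8 genes, so this recovery does not apply to those. Codons were derived from the annotated base and residue changes. Planned Fisher exact tests of tissue and mouse number series are not given, because the genes were chosen for having calls. The members, gene lists and alternatives were chosen with earlier results of these data known. Named genes were the rows of the 8 genes and any listed complex gene with a protein-altering call, and Kat7 was named after its values were seen. For 1 of the 11 calls the change and its own values are not reported here, and it is kept in the counts.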

Additional observations from a re-analysis of the deposited data

Results flagged for a closer look

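Among the 6 bone marrow leukemias, M23 stood apart with 1 protein-altering call in the 8 genes, the Kmt2c insertion in 3 of 111 reads, while the other 5 had 0. With counts of 0 and 1, any single call would be picked out in the same way.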

How the results depend on the processing

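The number of protein-altering calls in the 8 genes, 10 in all, was 3 without M18, M19 and M22, and 7 to 9 when any 1 of the 6 leukemias was left out. With an allele fraction of at least 0.10, the leukemias hit numbered 3 of 8 plain and 3 of 11 thymus, and the listed genes with a protein-altering call fell to 2 for the KMT2 and SET1 complexes, 0 for DNA methylation and 0 for the NCoR and SMRT complex. Without M18, M19 and M22, 3 of 5 plain and 2 of 8 thymus leukemias were hit. Within bone marrow, 1 of 2 plain and 0 of 4 NN leukemias were hit. Leaving out 1 leukemia at a time gave 5 to 6 plain and 4 to 5 thymus leukemias. Each of these settings counts fewer calls or leukemias, so the counts could only stay or fall. Reasons for the drops were not tested. The 9 calls below an even split stayed at 9 with an expected share of 0.45, with total depth, and with at least 20 reads. The 3 calls at or above 0.10 were 3 at a threshold of 0.05, 2 at 0.20, and 3 with read counts in place of the caller's fraction. The limits of 20 reads and 0.05 could not change these counts. No call had fewer than 22 reads, and the calls below 0.10 reached at most 0.043. The orientation test passed 0 calls in either adjustment. Depth bears on which low fractions can be seen: 3 reads are 2.31% of the median depth in M18 but 7.89% in M21. These values are not limits at single sites, and both leukemias had calls with caller fractions below them. The alternatives within tissues or series, for the joined Tet3 pair and for single leukemias were chosen after seeing the data. No paired analysis was possible because each leukemia came from a separate mouse and no numbers are shared between groups.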
